A study of Drosophila melanogaster with 9 samples.

Results

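In wing discs of Drosophila larvae, 24 genes stood higher by a similar amount whether NAT10 was knocked down alone or together with the transcription factor Xrp1. They were chosen from measured values. A gene entered when the log2 ratio of mean CPM (a gene's counts scaled to the library total), with 1 CPM added, was at least 0.8 against control in both knockdown genotypes and differed by less than 0.5 between the knockdowns. Of 13963 FlyBase genes in a table of 14168 entries, 2255 had no counts, 254 passed the limit in double knockdown discs (2.17% of those with counts) and 490 in NAT10 knockdown discs (4.19%). Both limits were passed by 79 genes, and 32 of these lay within 0.5 of each other. Set aside were 4 genes by name (Lcp3, Lcp4, Cpr11A and Sesn) and 4 that carry the process term transmembrane transport (Picot, CG5002, Slc45-1 and CG42514). All 3 genotypes entered the choice, so the values of the 24 genes are given below as a description, with no test on the difference that chose them.

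NAT10 is the enzyme that acetylates cytidines of ribosomal RNA and works in ribosome production, and its fly gene is l(1)G0020. Xrp1 is a bZIP transcription factor that turns on a stress programme in cells short of ribosomal proteins. The study asked how much of the response to NAT10 loss runs through Xrp1. The genes described here are those that stood higher to a like extent with Xrp1 RNAi and without it. The wing disc is the larval epithelium that gives rise to the wing blade, hinge and notum of the adult, and the engrailed promoter drives expression in its posterior compartment.

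Double knockdown discs carried the driver en-GAL4 with RNAi transgenes against NAT10 and Xrp1, NAT10 knockdown discs carried it with UAS-NAT10-RNAi, and control discs were en-GAL4>+. The driver is thus shared by all groups, the NAT10 hairpin by both knockdowns, and the control carries no hairpin. In the library labels, the strain name w1118 stands only with the control and GD stands with both knockdowns. For each genotype, 3 biological replicates were sequenced as mRNA, each from 100 discs of larvae in the third instar. Because whole discs were used, targeted posterior cells and untargeted anterior cells are mixed in each value, and fewer cells of a type cannot be told apart from less RNA per cell. What comes with the chromosome that carries the NAT10 hairpin and what comes from NAT10 depletion cannot be told apart either, since both knockdown genotypes carry it and the control does not.

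Library totals ran between 14183856 and 19949448 estimated counts. The NAT10 gene l(1)G0020 had 76.1, 78.1 and 71.8 CPM in double knockdown discs, 61.3, 63.0 and 62.3 CPM in NAT10 knockdown discs, and 99.3, 102.3 and 100.0 CPM in control discs. Xrp1 had 430.5, 411.0 and 396.8 CPM in double knockdown discs, 941.6, 950.6 and 927.0 CPM in NAT10 knockdown discs, and 504.4, 523.0 and 521.7 CPM in control discs. The NAT10 transcript fell in both knockdowns, and was higher in the double than in the NAT10 knockdown (log2 0.26 ± 0.042, edgeR adjusted p = 7.11e-06). Xrp1 fell in the double knockdown (-0.35 ± 0.028, adjusted p = 1.81e-10) and rose in the NAT10 knockdown (0.85 ± 0.028, adjusted p = 1.29e-19). The gene engrailed itself (en) had 72.3, 71.9 and 73.1 CPM in double knockdown discs, 61.8, 60.6 and 62.3 CPM in NAT10 knockdown discs, and 102.4, 97.9 and 100.4 CPM in control discs, and it fell in both (adjusted p = 1.96e-10 in the double and 3.12e-14 in the NAT10 knockdown). The labels name the cells as epithelial, and the 17 listed disc epithelium markers were all present, with a summed level of 7729 to 7876 CPM in double knockdown discs, 6652 to 6727 in NAT10 knockdown discs and 7778 to 7804 in control discs. Fat body markers summed to 1388 to 1458 CPM in double knockdown discs, 142 to 157 in NAT10 knockdown discs and 56.7 to 60.2 in control discs, with Npc2d at 0. Of 9 fat body markers tested, 9 rose in the double knockdown (median log2 6.43) and 7 in the NAT10 knockdown (1.36), and 0 fell. Malpighian tubule markers summed to 118 to 128 CPM in double knockdown discs, 83.6 to 89.1 in NAT10 knockdown discs and 80.0 to 88.6 in control discs, with byn at 0. Of 7 tubule markers tested, 7 rose in the double knockdown (median log2 5.27) and 1 in the NAT10 knockdown (0.0), and 0 fell. Summed levels of hemocyte and tracheal markers were higher in both knockdowns. Hemocyte markers summed to 283 to 293 CPM in double knockdown discs, 314 to 331 in NAT10 knockdown discs and 230 to 247 in control discs, with NimC4 at 0, and of 12 tested 2 rose and 3 fell in the double knockdown and 2 rose and 5 fell in the NAT10 knockdown. Tracheal markers summed to 1547 to 1569 CPM in double knockdown discs, 1721 to 1782 in NAT10 knockdown discs and 1434 to 1462 in control discs, and of 8 tested 2 rose and 1 fell in the double knockdown and 4 rose and 3 fell in the NAT10 knockdown. The shares over all 8487 genes tested were 15.7% higher and 15.5% lower in the double knockdown, and 32.5% higher and 29.6% lower in the NAT10 knockdown. None of the 24 genes is on these marker lists, and the part that RNA of other cell types has in their values was not tested.

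Together the 24 genes held 515.9, 518.4 and 529.3 CPM in double knockdown discs, 523.1, 539.9 and 542.5 CPM in NAT10 knockdown discs, and 247.6, 239.0 and 242.5 CPM in control discs. The phosphate transporter gene NaPi-III alone supplied more of that sum than any other member in each group. The median member had 9.6 CPM in double knockdown discs, 9.67 in NAT10 knockdown discs and 2.82 in control discs. For every member, the 3 libraries of each knockdown lay above the 3 control libraries. This was so for 20.7% of FlyBase genes with counts in the double knockdown and for 27.6% in the NAT10 knockdown, and nothing is read from the members' count because the rule used these values. By edgeR's quasi-likelihood test with adjusted p under 0.05, 24 of 24 were called higher in both, against 15.7% of 8487 genes tested in the double knockdown and 32.5% in the NAT10 knockdown. These calls were fixed by the choice of members in the same libraries, and nothing is read from them either. In the double knockdown 1335 genes were called higher and 1318 lower, which is 50.3% higher, and with total counts as the only scaling the split was 1613 to 1044, or 60.7%. The median log2 ratio of the members was 1.01 in double knockdown discs (range 0.85 to 3.70) and 1.17 in NAT10 knockdown discs (range 0.82 to 3.81), beside 0.024 and 0.019 over all FlyBase genes with counts.

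**Figure D1:**
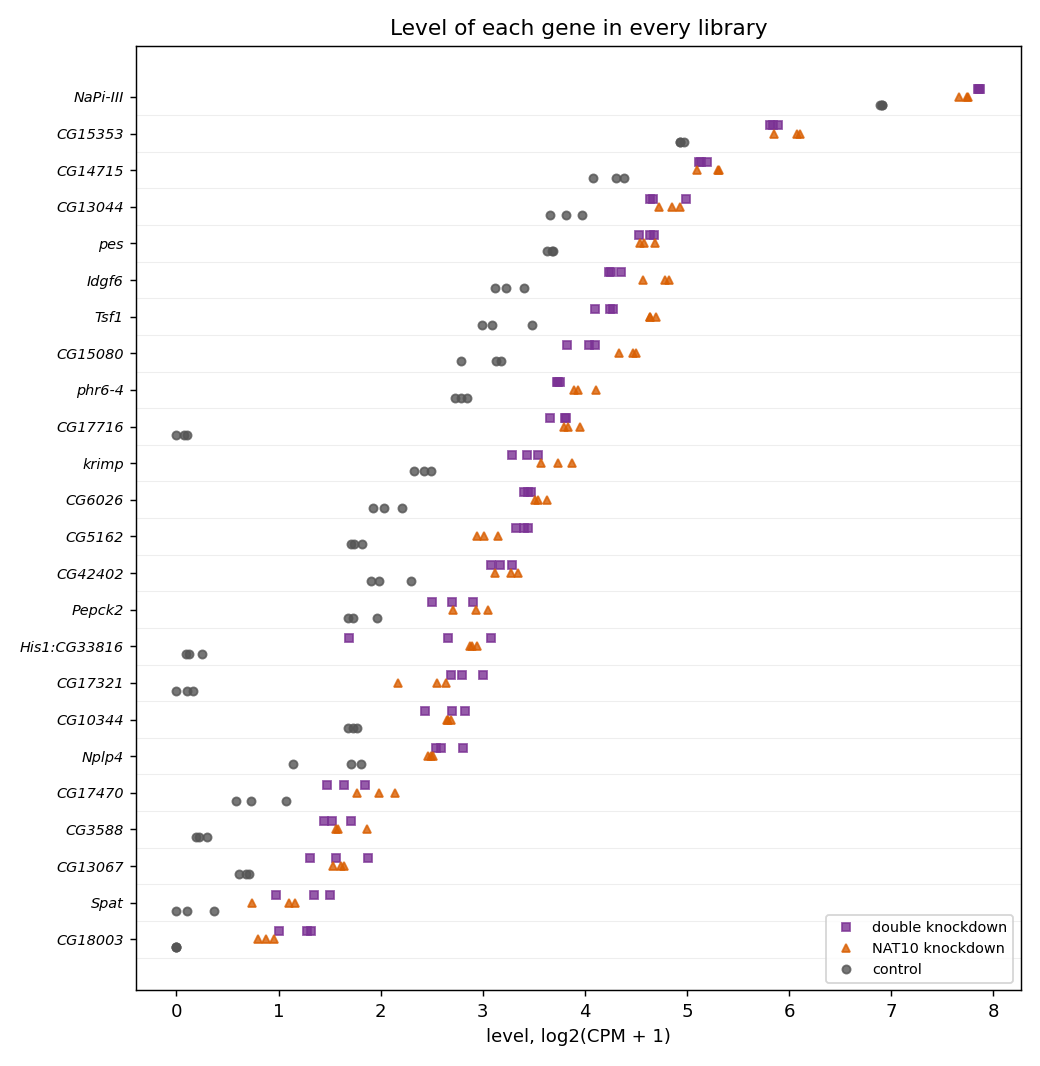
Level of each of the 24 genes in the 9 libraries, as log2(CPM + 1) on the horizontal axis, with 1 point per library for double knockdown (squares), NAT10 knockdown (triangles) and control (circles). In all 24 rows the control points lie left of every knockdown point, while squares and triangles overlap for 13 genes.

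**Figure D2:**
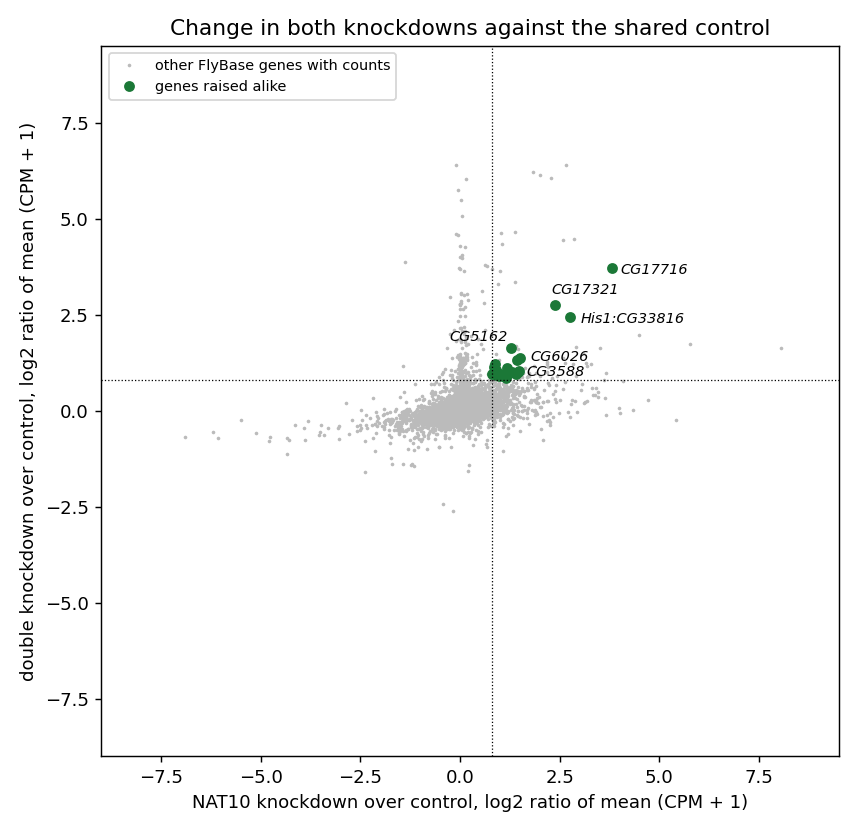
Log2 ratio of mean (CPM + 1) against control for each FlyBase gene with counts, NAT10 knockdown on the horizontal and double knockdown on the vertical axis, with the 24 genes in green and the limit of 0.8 as dotted lines. Both axes share the control libraries; 3 of the 24 genes, CG17716, CG17321 and His1:CG33816, exceed 2 on both.

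Of the 24 members, 6 were close to silent in control discs, with means under 0.2 CPM. A count of 3 reads corresponds to 0.150 to 0.212 CPM in these libraries, so most of their control values are at or below that floor. The ratios below compare summed counts scaled by library totals, with a 95% exact interval that covers counting error only.

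CG17716 (FBgn0000633, 2R:13623044-13749367, plus strand), named tei in the reference annotation, was the extreme case. It had 13.0, 11.6 and 13.1 CPM in double knockdown discs, 14.5, 13.3 and 12.9 CPM in NAT10 knockdown discs, and 0.0551, 0.0705 and 0 CPM in control discs. Its summed counts were 726 in double knockdown discs, 712 in NAT10 knockdown discs and 2 in control discs. The ratio to control was 312 in the double knockdown (interval 86.1 to 2580) and 336 in the NAT10 knockdown (92.6 to 2780). CG17321 (FBgn0032719, 2L:18845184-18855110, plus strand) had 7.02, 5.95 and 5.46 CPM in double knockdown discs, 4.85, 5.22 and 3.51 CPM in NAT10 knockdown discs, and 0, 0.0705 and 0.116 CPM in control discs. With 354, 237 and 3 summed counts in double knockdown, NAT10 knockdown and control discs, its ratio was 101 (34.4 to 494) in the double knockdown and 74.5 (25.2 to 364) in the NAT10 knockdown. The double knockdown libraries of CG17321 lay above those of the NAT10 knockdown, and those of CG17716 overlapped. With so few control reads, single control libraries moved these ratios. Without control replicate 3 the ratio of CG17716 was 204 in the double knockdown and 219 in the NAT10 knockdown. That of CG17321 was then 199 in the double and 146 in the NAT10 knockdown, and without control replicate 1 it was 64.3 in the double and 47.2 in the NAT10 knockdown. CG17716 and CG17321 were also the 2 members whose span holds annotated transposons, 2 in CG17716 and 1 in CG17321. The share of all genes with a transposon in their span was not computed, and span length was not allowed for. Nothing is read from this count.

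His1:CG33816 (FBgn0053816, 2L:21456113-21457135, plus strand) is 1 of 23 near-identical gene copies of the linker histone H1, which binds DNA between nucleosomes. It had 2.22, 7.48 and 5.32 CPM in double knockdown discs, 6.71, 6.32 and 6.44 CPM in NAT10 knockdown discs, and 0.0661, 0.0917 and 0.186 CPM in control discs. Double knockdown replicate 1 was low at 2.22 CPM, and the group's coefficient of variation, 52.8%, was the highest among members in that genotype. Summed over the 23 copies, H1 had 5.80, 8.40 and 6.26 CPM in double knockdown discs, 11.2, 10.6 and 9.97 CPM in NAT10 knockdown discs, and 4.13, 3.52 and 4.71 CPM in control discs. The share of this sum given to His1:CG33816 was 38.3%, 89.1% and 85.0% in double knockdown libraries, 59.8% to 64.6% in NAT10 knockdown libraries and 1.60% to 3.94% in control libraries. The copy His1:CG31617 fell in both, with means of 0.143 CPM in double knockdown discs, 0.532 in NAT10 knockdown discs and 1.21 in control discs (edgeR adjusted p = 3.5e-05 and 0.0116 against control), and His1:CG33813 has identical values. How reads are divided among such copies rests on small sequence differences, so the level of a single copy is uncertain. The sum of copies differed from control by less than the single copy did. Between the knockdowns the sum differed by more. Its means were 6.82 CPM in double knockdown and 10.6 in NAT10 knockdown discs, without overlap of libraries. Those of the single copy were 5.01 and 6.49 CPM, with overlap.

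Spat (FBgn0014031, X:6528948-6530726, plus strand), named Agxt in the reference, encodes an aminotransferase that turns glyoxylate into glycine. It had 0.966, 1.84 and 1.55 CPM in double knockdown discs, 1.14, 1.23 and 0.668 CPM in NAT10 knockdown discs, and 0, 0.0705 and 0.291 CPM in control discs. Its ratio to control was 11.9 in the double knockdown (5.24 to 33.3) and 8.33 in the NAT10 knockdown (3.58 to 23.7). Control replicate 3 held 5 of the 6 control reads. Without it the ratio was 46.6 in the double and 32.6 in the NAT10 knockdown, above the intervals just given, and without control replicate 1 it was 7.53 in the double and 5.28 in the NAT10 knockdown. CG18003 (FBgn0061356, 2R:10883547-10884936, plus strand) carries the reference name Hao, for a hydroxyacid oxidase, the enzyme type that makes glyoxylate in mammals. It had 1.42, 1.5 and 1.00 CPM in double knockdown discs, 0.742, 0.939 and 0.836 CPM in NAT10 knockdown discs, and 0 CPM in each library of control discs, so no control library held a read. Set against a floor of 3 counts over the control group, its ratio was 21.5 in double knockdown discs and 13.8 in NAT10 knockdown discs. The exact interval of its ratio to control began lower, at 17.1 in the double knockdown and 10.8 in the NAT10 knockdown, with no upper end. CG3588 (FBgn0025643, X:2919770-2924426, plus strand) had 1.88, 1.72 and 2.26 CPM in double knockdown discs, 2.00, 2.64 and 1.95 CPM in NAT10 knockdown discs, and 0.165, 0.141 and 0.233 CPM in control discs, a ratio of 10.8 (5.49 to 24.2) in the double knockdown and 12.1 (6.13 to 27.0) in the NAT10 knockdown.

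**Figure D3:**
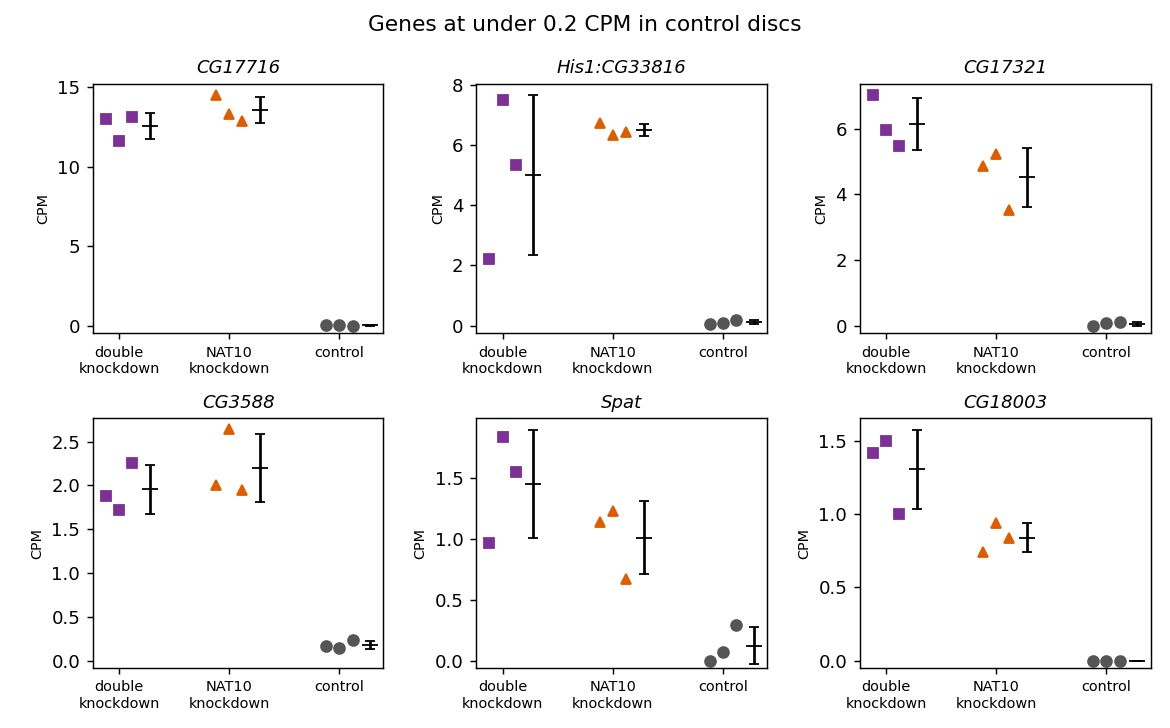
CPM in each library (coloured points) and mean ± SD (black, n = 3) for the 6 genes with a control mean under 0.2 CPM, with double knockdown left, NAT10 knockdown in the middle and control right. Control points sit at or near 0 in each panel, and the double knockdown points of His1:CG33816 spread between 2.22 and 7.48 CPM.

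Among genes of transport and metabolism, NaPi-III (FBgn0260795, 3L:11123348-11134663, plus strand), a sodium-dependent phosphate cotransporter, was the most abundant member by count. It had 229.2, 233.2 and 231.2 CPM in double knockdown discs, 212.4, 202.2 and 214.2 CPM in NAT10 knockdown discs, and 119.5, 117.6 and 118.9 CPM in control discs. Its edgeR log2 fold change was 0.94 ± 0.031 in the double knockdown and 0.81 ± 0.031 in the NAT10 knockdown. It was the member nearest the lower limit in the NAT10 knockdown, at a rule ratio of 0.82. CG5162 (FBgn0030828, X:17215304-17217365, plus strand), annotated to lipid breakdown, had 9.0, 9.57 and 9.87 CPM in double knockdown discs, 7.88, 6.69 and 7.07 CPM in NAT10 knockdown discs, and 2.53, 2.33 and 2.27 CPM in control discs. Its log2 fold change was 1.97 ± 0.14 in the double knockdown and 1.59 ± 0.15 in the NAT10 knockdown. Of the 24 genes it stood with NaPi-III and CG17321 as those called higher in double than in NAT10 knockdown discs.

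Pepck2 (FBgn0034356, 2R:18527430-18535749, plus strand) encodes a phosphoenolpyruvate carboxykinase, an enzyme type that commits carbon to glucose synthesis. It had 5.49, 4.67 and 6.47 CPM in double knockdown discs, 5.54, 7.28 and 6.63 CPM in NAT10 knockdown discs, and 2.31, 2.89 and 2.21 CPM in control discs, a log2 fold change of 1.16 ± 0.18 in the double knockdown and 1.39 ± 0.18 in the NAT10 knockdown. Its neighbour Pepck1, 1018 bases away and no member, was more abundant. The table lists Pepck1 and CG45087 at the same place with identical counts, and their sum was 134.9, 139.3 and 134.3 CPM in double knockdown discs, 141.3, 145.5 and 142.2 CPM in NAT10 knockdown discs, and 74.0, 83.9 and 83.3 CPM in control discs. Pepck1 rose in both (edgeR log2 0.74 ± 0.05, adjusted p = 5.8e-12 in the double knockdown, and 0.82 ± 0.05, adjusted p = 1.06e-13 in the NAT10 knockdown) and missed the rule with a ratio of 0.745 in the double knockdown. fbp, the fructose-bisphosphatase of the same pathway, fell in both, with log2 fold changes of -0.15 in the double knockdown (adjusted p = 0.0263) and -0.88 in the NAT10 knockdown (adjusted p = 1.39e-13). PCB, pyruvate carboxylase, had log2 rises of 0.32 (double knockdown, adjusted p = 3.69e-05) and 0.67 (NAT10 knockdown, adjusted p = 4.67e-11).

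pes (FBgn0031969, 2L:7986786-7994184, minus strand), or peste, is a scavenger receptor of the CD36 type. It had 24.6, 23.9 and 22.1 CPM in double knockdown discs, 22.2, 24.8 and 22.9 CPM in NAT10 knockdown discs, and 11.8, 11.4 and 11.9 CPM in control discs. The fitted log2 fold change, 0.98 ± 0.081 in the double knockdown and 0.98 ± 0.081 in the NAT10 knockdown, was nearly the same in both genotypes. None of its 3 tested relatives rose: emp had means of 223 CPM in double knockdown, 167 in NAT10 knockdown and 228 in control discs, and fell in the NAT10 knockdown (log2 -0.46, edgeR adjusted p = 4.7e-12) with no call in the double knockdown (-0.06, adjusted p = 0.199). crq, a receptor for the uptake of dead cells, fell in both, with log2 changes of -0.19 (adjusted p = 0.0108) in the double knockdown and -0.15 (adjusted p = 0.0207) in the NAT10 knockdown. Snmp2 was not called in the double knockdown (-0.23, edgeR adjusted p = 0.378) and fell in the NAT10 knockdown (-0.55, adjusted p = 0.0175). Over all genes tested, 15.7% were called higher in the double knockdown and 32.5% in the NAT10 knockdown.

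The next group holds genes of secreted, matrix or cuticle-like proteins, together with CG13067, for which no process term is listed. Idgf6 (FBgn0013763, 2R:16691022-16693751, plus strand) is a chitinase-like imaginal disc growth factor that works in cuticle formation. It had 18.1, 19.5 and 17.9 CPM in double knockdown discs, 22.8, 27.3 and 26.5 CPM in NAT10 knockdown discs, and 9.58, 8.39 and 7.68 CPM in control discs. Its log2 fold change was 1.08 ± 0.098 in the double knockdown and 1.56 ± 0.096 in the NAT10 knockdown, and the double knockdown libraries all lay between the other groups. Idgf2 and Idgf3, which are no members, rose as well. The log2 fold change of Idgf2 was 0.95 ± 0.27 (edgeR adjusted p = 0.00951) in double knockdown discs and 1.00 ± 0.28 (adjusted p = 0.00294) in NAT10 knockdown discs. That of Idgf3 was 0.88 ± 0.28 (edgeR adjusted p = 0.0186) in double knockdown discs and 1.18 ± 0.28 (adjusted p = 0.000605) in NAT10 knockdown discs. Idgf4, the abundant member of the family at 317 CPM in double knockdown, 344 in NAT10 knockdown and 299 in control discs, changed by 0.06 (adjusted p = 0.0958) in the double knockdown and rose by 0.19 (adjusted p = 5.64e-07) in the NAT10 knockdown.

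Tsf1 (FBgn0022355, X:18387084-18390344, plus strand) is the transferrin that carries iron in the hemolymph. It had 16.1, 18.4 and 18 CPM in double knockdown discs, 24.9, 23.8 and 23.8 CPM in NAT10 knockdown discs, and 7.49, 10.2 and 6.93 CPM in control discs, a log2 fold change of 1.09 ± 0.11 in the double knockdown and 1.57 ± 0.10 in the NAT10 knockdown. The difference between the knockdowns was -0.48 ± 0.091, with the 3 double knockdown libraries below the 3 NAT10 knockdown libraries. Tsf3 moved further apart, with 4.52 CPM in double knockdown discs, 10.3 in NAT10 knockdown discs and 2.90 in control discs. Its log2 fold change was 0.65 ± 0.19 in the double knockdown (edgeR adjusted p = 0.00959) and 1.85 ± 0.17 in the NAT10 knockdown (adjusted p = 4.1e-10), and the knockdowns differed by -1.2 ± 0.15 (adjusted p = 1.53e-07). Tsf2 was not called in the double knockdown (-0.02, adjusted p = 0.684) and was lower in the NAT10 knockdown (-0.19, adjusted p = 7.7e-07).

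CG15080 (FBgn0034391, 2R:18783299-18794594, plus strand), annotated to cell adhesion and extracellular matrix, had 16.1, 13.2 and 15.4 CPM in double knockdown discs, 19.2, 21.1 and 21.7 CPM in NAT10 knockdown discs, and 7.76, 8.04 and 5.88 CPM in control discs. The fold change of CG15080 on the log2 scale was 1.03 ± 0.11 in the double knockdown and 1.51 ± 0.11 in the NAT10 knockdown. Nplp4 (FBgn0040717, 2L:2008414-2009072, plus strand), a neuropeptide-like precursor, had 4.83, 5.01 and 5.97 CPM in double knockdown discs, 4.51, 4.70 and 4.62 CPM in NAT10 knockdown discs, and 2.26, 1.2 and 2.5 CPM in control discs, and its control replicate 2 was the lowest control library. The change of Nplp4 was 1.35 ± 0.20 in the double knockdown and 1.17 ± 0.21 in the NAT10 knockdown, on the log2 scale. Nplp1, the 1 relative tested, had mean levels of 1.33, 1.31 and 1.38 CPM in double knockdown, NAT10 knockdown and control discs, and was not called in either (edgeR adjusted p = 0.908 and 0.885). CG13044 (FBgn0036599, 3L:16302490-16303178, minus strand), which the table describes by its likeness to a cuticle protein of Drosophila erecta, had 23.8, 24.4 and 30.8 CPM in double knockdown discs, 27.8, 29.4 and 25.5 CPM in NAT10 knockdown discs, and 14.7, 11.6 and 13.1 CPM in control discs. The fitted log2 change was 0.97 ± 0.11 in the double knockdown and 1.05 ± 0.11 in the NAT10 knockdown. Of its exon bases, 91.3% overlap the antisense gene asRNA:CR45890, and no use of strand is stated, so reads of the pair cannot be told apart. CG13067 (FBgn0036589, 3L:16271282-16271918, plus strand), 30572 bases from CG13044, had 1.47, 1.95 and 2.66 CPM in double knockdown discs, 2.11, 2.05 and 1.89 CPM in NAT10 knockdown discs, and 0.606, 0.635 and 0.524 CPM in control discs. The fitted log2 change was 1.76 ± 0.32 in the double knockdown and 1.76 ± 0.33 in the NAT10 knockdown.

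Besides the histone, phr6-4, krimp and CG6026 were genes of DNA repair, transposon silencing and chromatin, in that order. phr6-4 (FBgn0016054, 2L:20643351-20645791, minus strand) encodes the photolyase that repairs (6-4) photoproducts, a form of ultraviolet damage. It had 12.5, 12.2 and 12.3 CPM in double knockdown discs, 14.3, 13.9 and 16.2 CPM in NAT10 knockdown discs, and 5.62, 5.92 and 6.17 CPM in control discs. Its log2 fold change was 1.04 ± 0.11 in the double knockdown and 1.32 ± 0.10 in the NAT10 knockdown. The related photolyase phr, with means of 66.9 CPM in double knockdown, 94.2 in NAT10 knockdown and 59.2 in control discs, rose by 0.16 ± 0.049 in the double knockdown (edgeR adjusted p = 0.0176) and by 0.66 ± 0.048 in the NAT10 knockdown (adjusted p = 4.67e-12). The difference between knockdowns was -0.51 for phr (adjusted p = 6.1e-10) and, as a description, -0.28 ± 0.09 for phr6-4.

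phr6-4 was the only member on any of the gene lists, the one on DNA damage and p53. Of the 24 genes of that list that were tested, 9 rose and 2 fell in the double knockdown and 20 rose and 2 fell in the NAT10 knockdown, with medians of 0.09 and 0.48. Over all genes tested, 15.7% and 32.5% were called higher and 15.5% and 29.6% lower in the double and NAT10 knockdowns. Between the knockdowns, 1 was higher and 16 were lower in the double knockdown, against 28.4% and 28.3% of all genes tested. These counts include phr6-4 itself, among the genes that rose in both and among those lower between the knockdowns. The rise of phr6-4 was fixed by the rule. The list genes with the smallest adjusted p in the NAT10 knockdown were the break sensors mre11 and rad50 and the end-joining genes Ku80 and Irbp. mre11 had 67.0 CPM in double knockdown, 143 in NAT10 knockdown and 59.1 in control discs, a log2 change of 0.16 (edgeR adjusted p = 0.00651) in the double knockdown and 1.26 (adjusted p = 1.32e-19) in the NAT10 knockdown. Ku80 had 25.6 CPM in double knockdown, 61.8 in NAT10 knockdown and 25.1 in control discs, with changes of 0.00 (adjusted p = 0.987) in the double knockdown and 1.29 (adjusted p = 9.74e-17) in the NAT10 knockdown. Irbp had 15 CPM in double knockdown, 42.8 in NAT10 knockdown and 15 in control discs, with changes of -0.02 (adjusted p = 0.87) in the double knockdown and 1.5 (adjusted p = 2.58e-15) in the NAT10 knockdown.

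krimp (FBgn0034098, 2R:16238103-16240722, minus strand) is a Tudor-domain protein of the germline piRNA pathway, which silences transposons. It had 10.6, 8.73 and 9.77 CPM in double knockdown discs, 10.9, 13.7 and 12.3 CPM in NAT10 knockdown discs, and 4.63, 4.02 and 4.36 CPM in control discs, a log2 fold change of 1.13 ± 0.13 in the double knockdown and 1.48 ± 0.13 in the NAT10 knockdown. Among 14 other piRNA pathway genes tested, 4 rose and 0 fell in the double knockdown and 9 rose and 2 fell in the NAT10 knockdown. Over all genes tested, 15.7% rose and 15.5% fell in the double knockdown, and 32.5% rose and 29.6% fell in the NAT10 knockdown. Between the knockdowns, 2 of the 14 were higher and 7 lower in the double knockdown, beside 28.4% higher and 28.3% lower over all genes tested. AGO3, a PIWI-family slicer, had 4.97 CPM in double knockdown, 13.2 in NAT10 knockdown and 5.26 in control discs. It was not called in the double knockdown (-0.10 ± 0.14, edgeR adjusted p = 0.631) and rose in the NAT10 knockdown (1.32 ± 0.12, adjusted p = 4.53e-10). qin, another Tudor-domain gene of the pathway, rose by 0.78 ± 0.13 in the double knockdown (adjusted p = 3.86e-05), while its log2 change in the NAT10 knockdown was -0.67 ± 0.16 (adjusted p = 0.000643). The listed male germline markers summed to 1.61 to 2.35 CPM in double knockdown, 1.88 to 3.88 in NAT10 knockdown and 1.80 to 2.48 in control discs, with aly and ocn at 0. CG6026 (FBgn0038676, 3R:19033538-19044693, plus strand), annotated to chromatin remodelling, had 10.1, 9.57 and 9.87 CPM in double knockdown discs, 10.4, 11.4 and 10.6 CPM in NAT10 knockdown discs, and 3.63, 3.10 and 2.79 CPM in control discs, a log2 fold change of 1.60 ± 0.13 in the double knockdown and 1.75 ± 0.13 in the NAT10 knockdown.

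**Figure D4:**
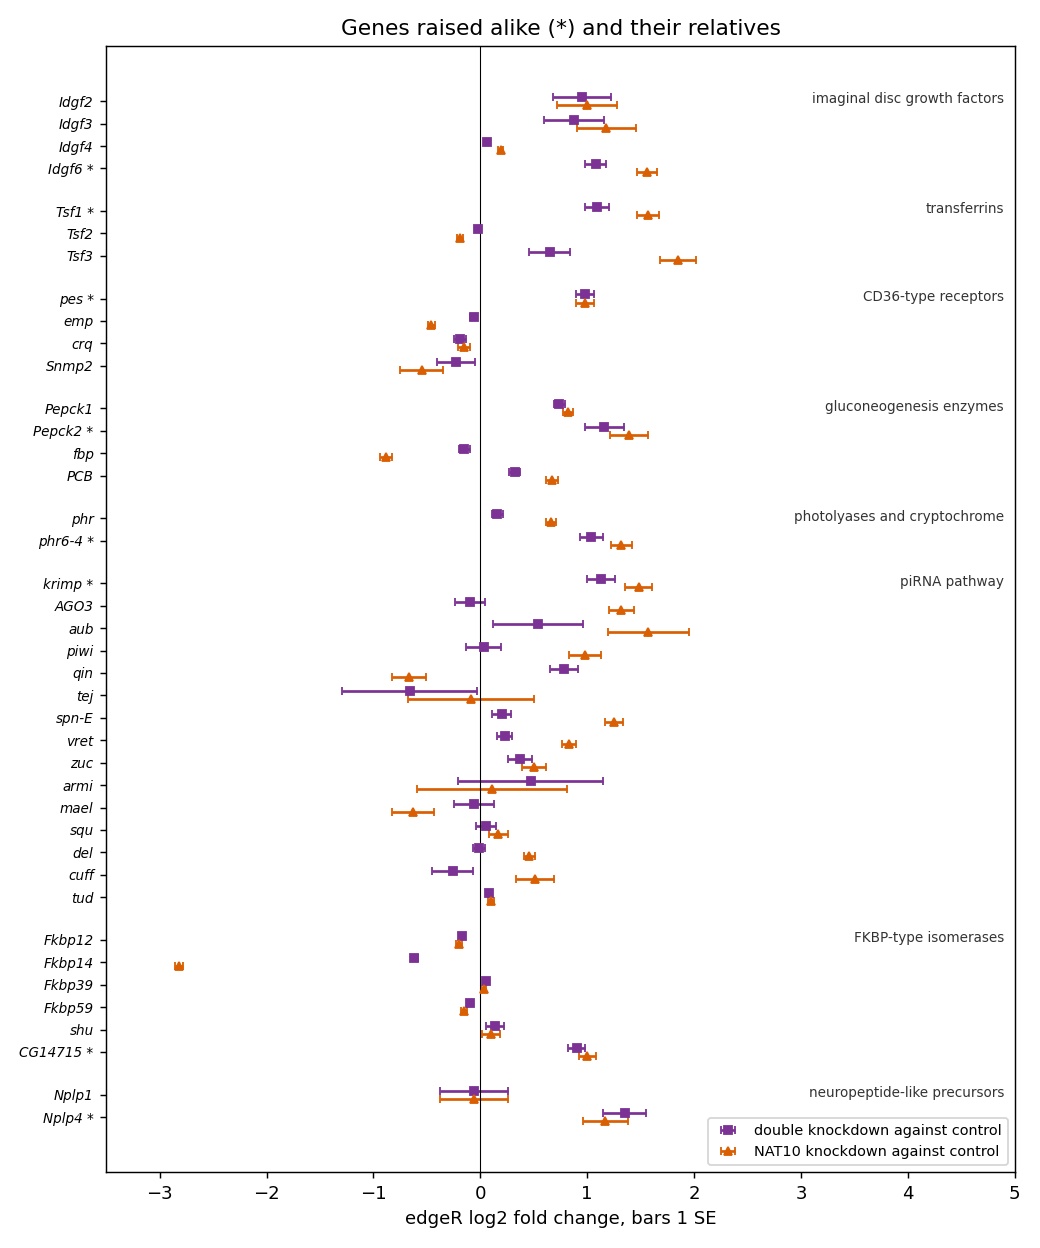
edgeR log2 fold change against control (points, bars 1 SE) for double knockdown (squares, upper of each pair) and NAT10 knockdown (triangles), for members (asterisks) and the tested genes of the same family or pathway. Members lie right of 0 in both genotypes, whereas AGO3, piwi and spn-E lie right of 0 mainly in the NAT10 knockdown and Fkbp14 lies at -0.62 and -2.82.

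Protein folding and modification genes included CG14715 and CG10344. CG14715 (FBgn0037930, 3R:11674221-11674923, plus strand), annotated as a peptidyl-prolyl isomerase of the FKBP type, had 35.6, 33.8 and 34.1 CPM in double knockdown discs, 33.2, 38.8 and 38.5 CPM in NAT10 knockdown discs, and 18.7, 15.9 and 19.8 CPM in control discs. Its log2 fold change was 0.90 ± 0.078 in the double knockdown and 1.00 ± 0.078 in the NAT10 knockdown. Of 5 other FKBP-type genes, 0 rose and 3 fell in each knockdown, beside 15.5% of genes tested that fell in the double knockdown and 29.6% in the NAT10 knockdown. Fkbp14, a chaperone of the secretory pathway, had means of 180 CPM in double knockdown, 38.8 in NAT10 knockdown and 272 in control discs. It fell by 0.62 ± 0.033 in the double knockdown (edgeR adjusted p = 4.01e-14), and its log2 change in the NAT10 knockdown was -2.82 ± 0.04 (adjusted p = 1.06e-27). CG10344 (FBgn0034729, 2R:22425733-22426977, minus strand), annotated to protein palmitoylation, had 5.49, 4.39 and 6.07 CPM in double knockdown discs, 5.31, 5.28 and 5.46 CPM in NAT10 knockdown discs, and 2.31, 2.40 and 2.21 CPM in control discs. A log2 change of 1.19 ± 0.17 in the double knockdown and 1.2 ± 0.18 in the NAT10 knockdown was fitted, and 16.1% of its exon bases overlap CG46442 on the other strand. Its neighbour rad50, 251 bases away, had 92.5 CPM in double knockdown, 175 in NAT10 knockdown and 83.5 in control discs, with log2 changes of 0.12 (adjusted p = 0.0141) and 1.06 (adjusted p = 4.95e-19) in the double and NAT10 knockdowns.

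For CG15353, CG42402 and CG17470 no molecular role is stated here. CG15353 (FBgn0040718, 2L:2006763-2007193, minus strand) had 55.0, 56.2 and 58.3 CPM in double knockdown discs, 56.9, 66.7 and 67.9 CPM in NAT10 knockdown discs, and 30.3, 29.5 and 29.5 CPM in control discs, a log2 change of 0.90 ± 0.061 in the double knockdown and 1.09 ± 0.061 in the NAT10 knockdown. Per length it was the most abundant member, at 161 ± 4.89 FPKM in double knockdown discs, 182 ± 17.2 in NAT10 knockdown discs and 85.1 ± 1.35 in control discs (SD, n = 3 each). Of its exon bases, 70.3% overlap asRNA:CR45712 on the other strand, so these reads cannot be divided between the genes. CG42402 (FBgn0259821, 3R:4077939-4104326, plus strand) had 8.75, 8.01 and 7.47 CPM in double knockdown discs, 9.19, 8.69 and 7.69 CPM in NAT10 knockdown discs, and 2.75, 2.96 and 3.90 CPM in control discs. The fitted log2 change was 1.3 ± 0.15 in the double knockdown and 1.40 ± 0.15 in the NAT10 knockdown. CG17470 (FBgn0032869, 2L:20642306-20643244, minus strand), annotated to mesoderm development and 107 bases from phr6-4, had 2.59, 1.78 and 2.11 CPM in double knockdown discs, 3.42, 2.41 and 2.95 CPM in NAT10 knockdown discs, and 0.661, 0.494 and 1.11 CPM in control discs. Its fitted log2 change was 1.47 ± 0.31 in the double knockdown and 1.92 ± 0.29 in the NAT10 knockdown.

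Levels per length, names, annotations and positions of the members were set beside those of all genes. The rule touched the first ones: FPKM comes from the same reads as the CPM it used, and it set aside genes by name and by process term. By FPKM, 20 of 24 members lay below the median of genes tested in each genotype. The median member had 4.17 FPKM in double knockdown, 4.67 in NAT10 knockdown and 1.48 in control discs, while the median gene tested had 20.3, 20.4 and 19.7 FPKM. Names of the form CG and a number, given to genes with little functional study, were held by 14 of 24 members, beside 46.6% of all FlyBase genes in the table and 36.3% of genes tested. No process term is listed for 10 of 24, beside 20.7% of genes tested, and no term was listed for more than 1 member. Chromosome 2 carries 14 members, or 58.3%, beside 37.8% of genes tested, and arm 3R carries 3, or 12.5%, beside 24.5%. Chromosome X carries 4, or 16.7%, beside 16.8%. Apart from CG17470 and phr6-4 and the pair CG13067 and CG13044, the pair within 50000 bases was CG15353 and Nplp4, 1221 bases apart.

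Genes next to the members were set beside all genes tested. Of the 88 nearest genes, 2 on each side with repeats dropped, 41 were tested. In the double knockdown 10 rose and 7 fell, or 24.4% higher beside 15.7% of all genes tested. In the NAT10 knockdown 15 rose and 11 fell, or 36.6% higher beside 32.5%. Called higher in both were 7 of the 41, or 17.1%, beside 10.4% of genes tested, with Pepck1 and CG45087, which share their values, counted as 2. Among the 7 was Sirup, 4685 bases from pes, with another gene nearer to pes on that side. Sirup had 12.6 ± 1.14 CPM in double knockdown discs, 12.7 ± 0.366 in NAT10 knockdown discs and 7.39 ± 0.535 in control discs (SD, n = 3 each). Its log2 fold change was 0.74 ± 0.11 in the double knockdown (edgeR adjusted p = 3.73e-06) and 0.77 ± 0.11 in the NAT10 knockdown (adjusted p = 5.93e-07). Around CG18003, silent in control discs, Pex6 had 11, 11.3 and 10.1 CPM and CG18004 had 31.4, 28.4 and 30.2 CPM in double knockdown, NAT10 knockdown and control discs, and neither was called. CG10602, 16 bases from CG17321, had 220 CPM in double knockdown, 187 in NAT10 knockdown and 239 in control discs and fell in both (adjusted p = 0.00106 and 2.87e-10). Sirup, CG18004, Pex6 and CG10602 were chosen after their values were seen.

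The similarity of the knockdowns was a condition of the choice, and the members still spread within it. The log2 ratio of double over NAT10 knockdown ran between -0.45 and 0.37 with a median of -0.10, and 16 members were lower and 8 higher in the double knockdown. The libraries of the knockdowns overlapped for 13 members, the double knockdown lay wholly above for 5 and wholly below for 6. No overlap was seen for 48.8% of FlyBase genes with counts, with the double knockdown above in 26.1%. By edgeR, 3 members were called higher and 6 lower, beside 28.4% and 28.3% of genes tested, and nothing is read from this count. The 6 called lower were CG15353, Idgf6, Tsf1, CG15080, phr6-4 and krimp. CG15080, Idgf6 and Tsf1 were also the nearest to the limit of 0.5, at -0.446, -0.445 and -0.441. Among genes with at least 5 CPM in the higher genotype, pre-mod(mdg4)-G at 0.571, CG11353 at -0.677 and CG15279 at -0.70 were just outside that limit. At the other limit and the same level, NaPi-III (0.815 in the NAT10 knockdown), CG14715 (0.894) and CG15353 (0.901, both in the double knockdown) were just inside. stv (0.786 in the NAT10 knockdown) and Pepck1 were just outside. Nearer than CG14715, but under 5 CPM, were Spat (0.85) and CG18003 (0.88) in the NAT10 knockdown and CG17470 (0.85) in the double knockdown.

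The count and FPKM of a gene in a library together imply its abundance-weighted transcript length, a measure the rule did not use. It could be computed for 15 members with at least 20 counts in each library and at least 0.3 FPKM. Groups whose libraries did not overlap and whose means differed by at least 1% were seen for 2 members between double knockdown and control, 2 between NAT10 knockdown and control and 3 between the knockdowns. The shares over 7252 genes were 5.38%, 6.30% and 6.80%. With 3 libraries against 3, the exact two-sided permutation test cannot go below p = 0.1, and adjusted over the 15 members the smallest values were 0.50, 0.50 and 0.30, so none passed.

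Pepck2 had an implied length of 2207, 2214 and 2156 bases in double knockdown discs, 2019, 2019 and 2019 in NAT10 knockdown discs, and 2020, 2101 and 2020 in control discs. Its annotated transcripts are 2019 and 3449 bases long, so NAT10 knockdown reads were assigned to the short form. Some reads of the double knockdown and of control replicate 2 were assigned to the long form. The mean was 7.1% above control in the double knockdown, and the groups did not overlap. The NAT10 knockdown mean differed from control by -1.3%, with control replicate 2 at 2101 bases and the other control libraries at 2020. NaPi-III had 3601, 3660 and 3604 bases in double knockdown discs and 3715 bases in each NAT10 knockdown and control library, a difference of -2.5% from control, with annotated transcripts of 2953 and 3715 bases. CG42402 had 4530, 4343 and 4417 bases in double knockdown discs and 4261, 4113 and 4275 in NAT10 knockdown discs, against 4336, 4641 and 4070 in control discs, which overlapped both. phr6-4 was 1.0% longer in NAT10 knockdown than in control discs.

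**Figure D5:**
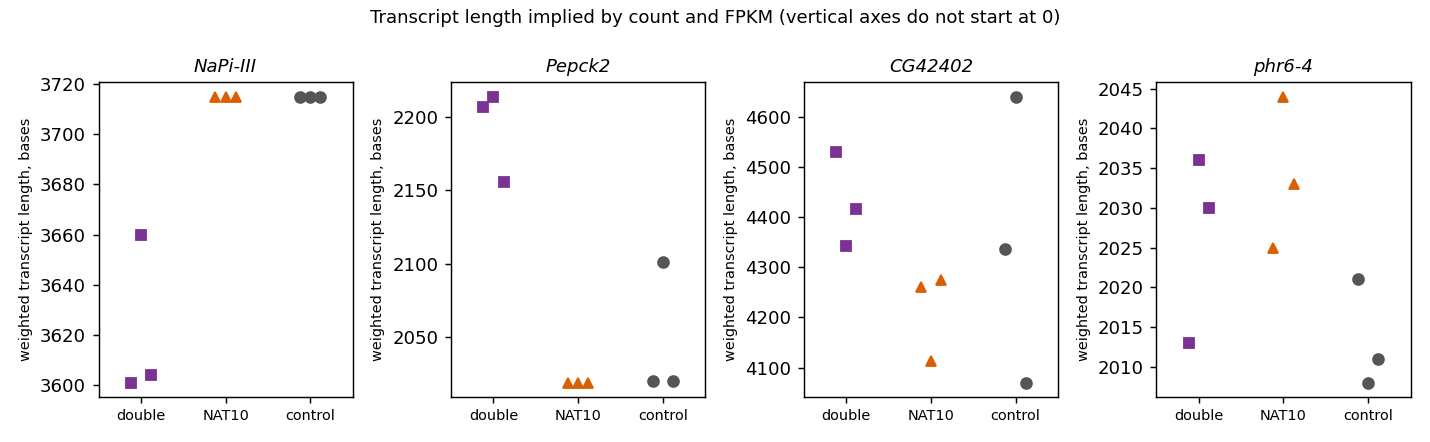
Abundance-weighted transcript length in bases, implied by count and FPKM, per library for NaPi-III, Pepck2, CG42402 and phr6-4, with double knockdown left, NAT10 knockdown in the middle and control right. Vertical axes do not start at 0; the double knockdown points of Pepck2 lie between 2156 and 2214 bases, above all other libraries.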

How the data were processed

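RNA was sequenced from 9 libraries, 3 per genotype. The deposited table holds each estimated count per gene and library and the matching FPKM, which the authors made before deposit. The submitters' processing notes name RSEM, StringTie 1.3.1, HISAT2 2.1.0 and fastp 0.18.0. The step each tool served and the genome build are not given in the sources used here. FPKM is the authors' value scaled to transcript length and library size. CPM was computed here from the column sums. Estimated counts were rounded and tested with edgeR 4.0.16 (quasi-likelihood test, TMM scaling, filterByExpr) in R 4.3.3 in 1 fit of the 9 libraries. P-values were adjusted by Benjamini-Hochberg for the 8487 genes tested, with calls at adjusted p under 0.05. The procedure was also run on simulated counts, with the same spread for every gene and changes only in genes above a mean of 5 CPM. That run does not cover members at low counts, and its outcome is not given here. Fold changes of members come from this fit, as fitted log2 value ± SE with 3 libraries per genotype. The SE was derived from the fold change and the F statistic of the test, with the spread estimated over all 9 libraries. Positions and transcripts are those of the BDGP6.54 annotation, release 115, matched by FlyBase identifier. No column of another series was present. Replicates are called biological in the labels, and library depth is in the report.

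The members, the 23 gene lists and the families were chosen with earlier results of these data known. Genes were named by a rule: the 15 members highest in both knockdowns, the 15 with the largest smaller ratio at 5 CPM or more, members in a list, genes next to a threshold, close pairs and the targeted genes. The other members are named so that each is accounted for, and relatives and neighbouring genes were chosen after their values were seen. Results are given for the list that holds a member and for the cell type lists named in the report. Intervals and floors cover counting error only. Alternatives were DESeq2 1.42.0, other scalings and filters, a replicate block, leaving out each library and other settings of the rule. Same-numbered libraries of different genotypes did not deviate together (correlations of -0.0376 to 0.0808).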

Additional observations from a re-analysis of the deposited data

How the results depend on the processing

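Membership depended on the settings of the rule. Of 24 members, 5 were left with a pseudocount of 5 CPM, 10 with a threshold of log2 1.0 and 14 with a difference under 0.25. A pseudocount of 0.5 CPM gave 32 genes, medians gave 23, and TMM-scaled CPM and the filter on low counts gave 24 each. Reading the excluded term as any term with the words transmembrane transport, a choice made after seeing the data, removed NaPi-III and gave 23. Leaving out each library in turn gave 22 to 27 genes, and 17 members were kept in each of these 9 settings. The others were CG17470 (without double knockdown replicate 1 or control replicate 2), His1:CG33816 (without double knockdown replicate 2), CG13067 (without double knockdown replicate 3), Idgf6 (without NAT10 knockdown replicate 1), Spat (without NAT10 knockdown replicate 1 or 2 or control replicate 1), NaPi-III (without NAT10 knockdown replicate 3) and Nplp4 (without control replicate 2). Under all alternatives, 2 members were kept. Of the members' log2 ratios recomputed under these settings, 657 moved by less than the spread between replicates, 63 moved by more, 62 of them under another pseudocount, and no ratio against control changed sign. The numbers of genes called over the table stayed within 1.5 times the main counts under every alternative run. With the replicate block, which the correlations do not call for, they were 2675 in the double knockdown against control, 5282 in the NAT10 knockdown against control and 4839 between the knockdowns, where the fit without it gave 2653, 5268 and 4813. The share of members on chromosome 2 is set beside 39.3% when all table genes replace those tested. The search for promoter motifs was not run, since no promoter sequence was used here. Depth limits the 6 members near 0 in control discs, whose ratios have wide intervals and, for CG17716, CG17321 and Spat, moved by over 1.5 times when 1 control library was left out, a check chosen after seeing the data.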
